A study of Macaca mulatta with 11 samples.

Results

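Integrins are the receptors with which cells hold the extracellular matrix, and focal adhesion linkers tie them to actin inside the cell. A list of 34 genes was taken as this group: 11 integrin alpha chains, 7 beta chains, 10 linkers, and 6 kinases or adaptors. A probe set belonged to the group where its gene symbol in the array's annotation was, or included, one of these genes. This gave 77 of 22215 probe sets for 33 of the 34 genes. No probe set of the table used here named BCAR1, a docking protein for the SRC kinase. Of the 77 probe sets, 4 carried further symbols: both for ITGB6 also named LINC02478, both for LIMS1 also named LIMS4, and 1 of the latter named LIMS3 as well.

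The RNA came from mesenchymal stem cells of rhesus monkey bone marrow, the adherent stromal cells of marrow, collected at passage 2 and hybridised to 11 oligonucleotide arrays annotated with human genes. The titles named 4 fetal, 4 infant and 3 adult cultures. Fetal arrays 1 and 2 were from donors at gestation day 120, and fetal arrays 3 and 4 were from newborn donors. Infant donors were 6, 6, 3 and 5 months old and adult donors 7, 7 and 8 years old, in the order of their numbers. All cultures grew in medium with fetal bovine serum. Long bones were flushed for marrow of the fetal group, against aspiration at later ages, and this step and age cannot be told apart. Whether each culture had its own donor animal is not stated, and p-values measure the spread between these cultures, which may be technical.

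An integrin is a pair of 1 alpha and 1 beta chain, and the pair decides which matrix protein is bound. ITGB1 pairs with many alpha chains to bind collagens, laminins or fibronectin, whereas ITGAV joins several beta chains to bind proteins with an RGD sequence. Talins and kindlins bind the tail of the beta chain and switch the receptor on. Vinculin, parvins, ILK and PINCH proteins then carry force to actin, and focal adhesion kinase, SRC and paxillin relay the signal. Marrow stromal cells use these contacts to sense the stiffness and makeup of their matrix, which bears on the lineage they take.

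Values are log2 intensities, and a log2 difference of 1 is a 2-fold change. The level of a probe set depends on how well human probes match monkey RNA, so levels are compared between arrays and not between genes. A mean above the median of all log2 values, 7.38, is called bright here, and one below it dim. Array medians lay between 164.9 and 169.6 on the linear scale. On the first principal component of all probe sets, with 23.1% of the variance, infant arrays 1 and 2 and adult arrays 1 and 2 lay between 16.1 and 20.5. All other arrays lay at or below -6.70. The brightest IGLC1 probe set, an immunoglobulin light chain gene, read 12.82 and 13.23 in adult arrays 1 and 2, against 9.10 in adult array 3 and at most 8.30 elsewhere. Of the listed marker probe sets, 12 of 18 were bright for stromal cells, 7 of 11 for smooth muscle, 6 of 11 for erythroid cells and 5 of 12 for leukocytes and macrophages. For endothelium and for megakaryocytes 3 of 9 were bright, for B and plasma cells 3 of 7 and for epithelium 2 of 6, while 10983 of all 22215 probe sets were bright.

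The comparison of ages asked which matrix receptors and linkers differ with donor age. No integrin chain and no linker passed a limma adjusted p of 0.05 in any comparison of the age groups. For fetal against adult arrays the smallest adjusted p of the 77 probe sets was 0.130, with 0.131% of all probe sets called. For infant against adult arrays it was 0.397, with 0.018% of all called. For fetal against infant arrays it was 0.197, with 0% of all called. An unadjusted p under 0.05 was reached by 6 of the 77 between fetal and adult arrays, where 8.96% of all probe sets reached it. Of the 6, 4 were higher in fetal arrays (4.83% of all) and 2 lower (4.12% of all). For infant against adult arrays 8 of the 77 reached it, against 6.19% of all, with 7 higher in infant arrays (2.39% of all) and 1 lower (3.79% of all). For fetal against infant arrays 9 reached it, against 6.87% of all, with 2 higher in fetal arrays (4.55% of all) and 7 lower (2.33% of all). These counts share arrays and often a gene: 3 of the last 9 were probe sets of FERMT2. Of the 7 higher in infant than adult arrays, TNS1 and CAV1 each gave more than 1. The F test over the 3 groups called none of the 77, with 8 at an unadjusted p under 0.05, where it called 0.036% of all and 8.01% had such a p. The arrays of the groups did not overlap for 7 of the 77 between fetal and adult (8.08% of all), with 4 higher in fetal arrays (3.66% of all) and 3 lower (4.41% of all). The same held for 2 between infant and adult (4.98% of all), both higher in infant arrays (1.8% of all) and none lower (3.18% of all). It held for 3 between fetal and infant (3.34% of all), with 1 higher in fetal arrays (2.13% of all) and 2 lower (1.21% of all).

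Most member differences were small and their intervals narrow, as for most probe sets. The median difference of the 77 between fetal and adult arrays was 0.02, and that of all probe sets was -0.01. Between fetal and adult arrays the 95% interval lay within -1 and 1 for 75 of the 77, against 21750 of all 22215 probe sets. The exceptions were the probe sets of CAV1. Between infant and adult arrays it was again 75, against 21936 of all, with the same exceptions. Between fetal and infant arrays it was 75, against 21965 of all, and the exceptions were 1 probe set of FERMT2 and 1 of CAV1. All 15 probe sets of alpha chains and all 25 of beta chains had intervals that excluded a 2-fold difference in each comparison. These intervals are not adjusted for the number of probe sets, and a dim probe set may understate a change.

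**Figure D1:**
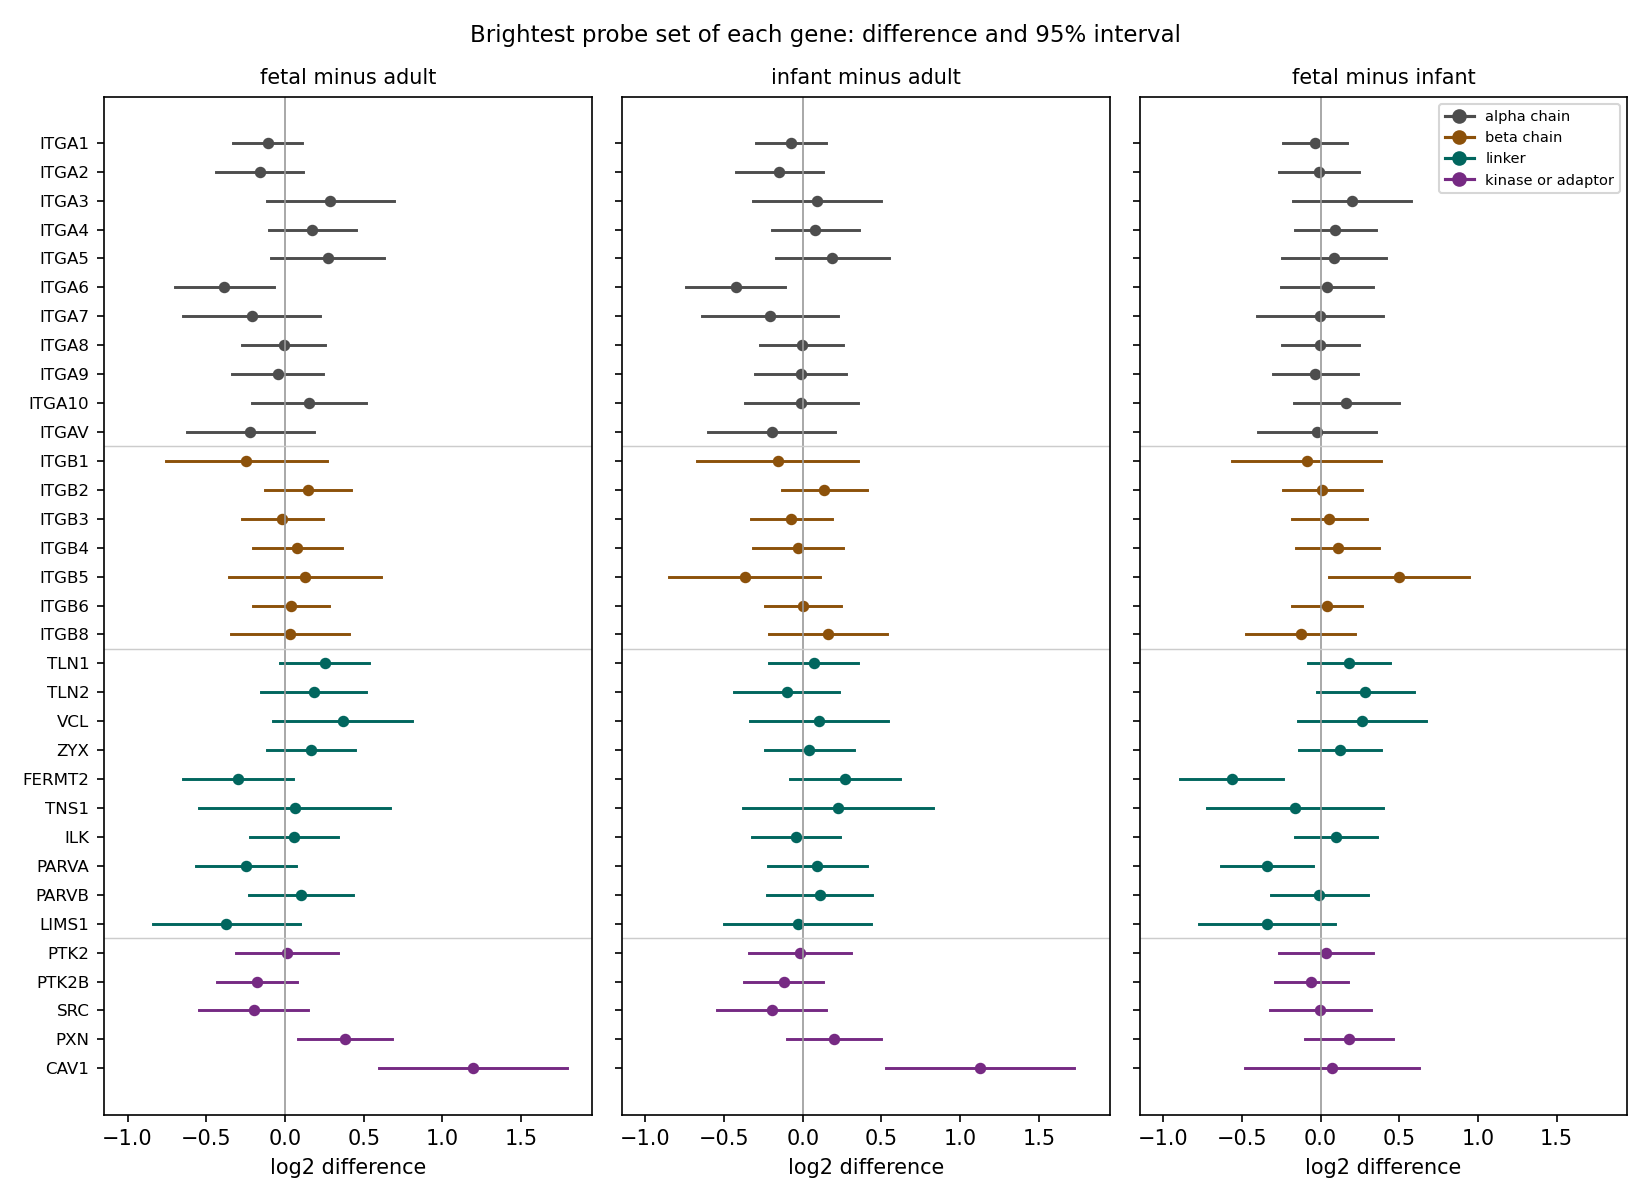
Log2 difference (point) and unadjusted 95% interval (line) for the brightest probe set of each of 33 genes, coloured by role, in the 3 comparisons of 4 fetal, 4 infant and 3 adult arrays. Only the CAV1 lines, in both comparisons with adults, reach past 1. Between fetal and infant arrays the FERMT2 and PARVA lines lie wholly below 0 and the ITGB5 line wholly above 0. The ITGA6 line lies wholly below 0 in both comparisons with adults, and the PXN line wholly above 0 between fetal and adult arrays.

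Integrin alpha chains gave no call. ITGA5, the fibronectin receptor chain, read 9.89, 10.07, 10.13 and 10.52 in fetal arrays 1 to 4, 10.00, 9.77, 10.00 and 10.49 in infant arrays 1 to 4, and 9.84, 9.97 and 9.83 in adult arrays 1 to 3. The groups overlapped, and fetal array 4 and infant array 4 were the highest. The fetal-to-adult difference was 0.27 (95% interval -0.09 to 0.63, adjusted p = 0.684).

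ITGAV, the chain of vitronectin receptors, read between 7.87 and 8.34 in fetal, 7.82 and 8.41 in infant, and 7.98 and 8.75 in adult arrays. Fetal array 4, infant array 4 and adult array 3 were each the highest of their group. Its differences were -0.22 between fetal and adult and -0.20 between infant and adult arrays (adjusted p = 0.794 and 0.901). ITGA3, a laminin receptor chain, read 8.56, 8.21, 8.38 and 8.47 in fetal arrays. It read 7.78, 8.04, 8.62 and 8.39 in infant and 7.94, 7.91 and 8.50 in adult arrays. Infant and adult arrays 1 and 2, those set apart on the first component, were its 4 lowest. Its difference of 0.29 between fetal and adult arrays did not pass (adjusted p = 0.713).

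ITGA6, another laminin receptor chain, had the smallest p among alpha chains. Its probe set 215177_s_at read 7.35, 7.27, 7.15 and 7.39 in fetal arrays 1 to 4, 7.30, 7.07, 7.54 and 7.08 in infant arrays 1 to 4, and 7.45, 8.00 and 7.57 in adult arrays 1 to 3. All fetal arrays lay below all adult arrays, while infant array 3 overlapped them. The difference was -0.39 (SE 0.15, adjusted p = 0.426) between fetal and adult, and -0.43 (SE 0.15, adjusted p = 0.651) between infant and adult arrays. Adult array 2 carried much of this: without it the differences were -0.22 and -0.26. Its mean lay just below the median of all values, and the other probe set, 201656_at, differed by -0.14 and -0.03 (adjusted p = 0.884 and 0.989).

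The remaining alpha chains had small differences. ITGA1, ITGA2 and ITGA10, of collagen receptors, differed by -0.11, -0.16 and 0.15 between fetal and adult arrays (adjusted p = 0.817, 0.776 and 0.852). ITGA8 differed by -0.01 and ITGA9 by -0.05, and both probe sets of ITGA7, a laminin receptor of muscle, by -0.21 and -0.19. The 3 probe sets of ITGA4, which binds VCAM1 and fibronectin, were all dim, and their differences between fetal and adult arrays lay between -0.02 and 0.17. Of 15 alpha chain probe sets 8 were bright.

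Integrin beta chains gave no call either. ITGB1, the common partner of the collagen, laminin and fibronectin receptor chains, was measured brightly by 1 of its 5 probe sets. That one, 211945_s_at, read 10.42, 10.53, 9.82 and 11.02 in fetal arrays 1 to 4, 10.42, 10.74, 10.11 and 10.87 in infant arrays 1 to 4, and 10.67, 10.46 and 10.96 in adult arrays 1 to 3. The arrays of each age overlapped the others, and the spread within the fetal group (SD 0.49, n = 4) exceeded every difference between group means. Fetal and adult arrays differed by -0.25 (95% interval -0.76 to 0.26). Infant and adult arrays differed by -0.16 (-0.67 to 0.35), and fetal and infant arrays by -0.09 (-0.56 to 0.39). Its other 4 probe sets were dim, and in 1 of them, 215878_at, all fetal arrays lay below all adult arrays (difference -0.21, adjusted p = 0.679).

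ITGB5, which pairs with ITGAV to bind vitronectin, was the beta chain with the smallest p, and its probe sets disagreed. Probe set 201125_s_at, 1 of its 3 bright ones, read 9.42, 9.79, 9.76 and 9.70 in fetal arrays 1 to 4, 9.06, 9.17, 9.06 and 9.38 in infant arrays 1 to 4, and 9.04, 9.28 and 10.30 in adult arrays 1 to 3. All fetal arrays lay above all infant arrays, as for 2.13% of all probe sets, and adult array 3 stood above every other array. The fetal-to-infant difference was 0.50 (SE 0.21, adjusted p = 0.686). Without adult arrays 1 and 2 the infant-to-adult difference was -1.13 and passed (adjusted p = 0.0366). That fit rests on 1 adult array, assumed to vary like the other groups, and with all arrays the difference was -0.37 (adjusted p = 0.844).

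The dim ITGB5 probe set 214021_x_at ran the other way. It read between 6.61 and 6.80 in fetal, 6.82 and 6.97 in infant, and 6.64 and 6.80 in adult arrays, so that the infant arrays lay above both other groups. Its difference was -0.23 between fetal and infant and 0.21 between infant and adult arrays (adjusted p = 0.663 and 0.770). The 2 other probe sets of ITGB5, both bright, differed by 0.09 and 0.19 between fetal and infant arrays (adjusted p = 0.907 and 0.849).

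**Figure D2:**
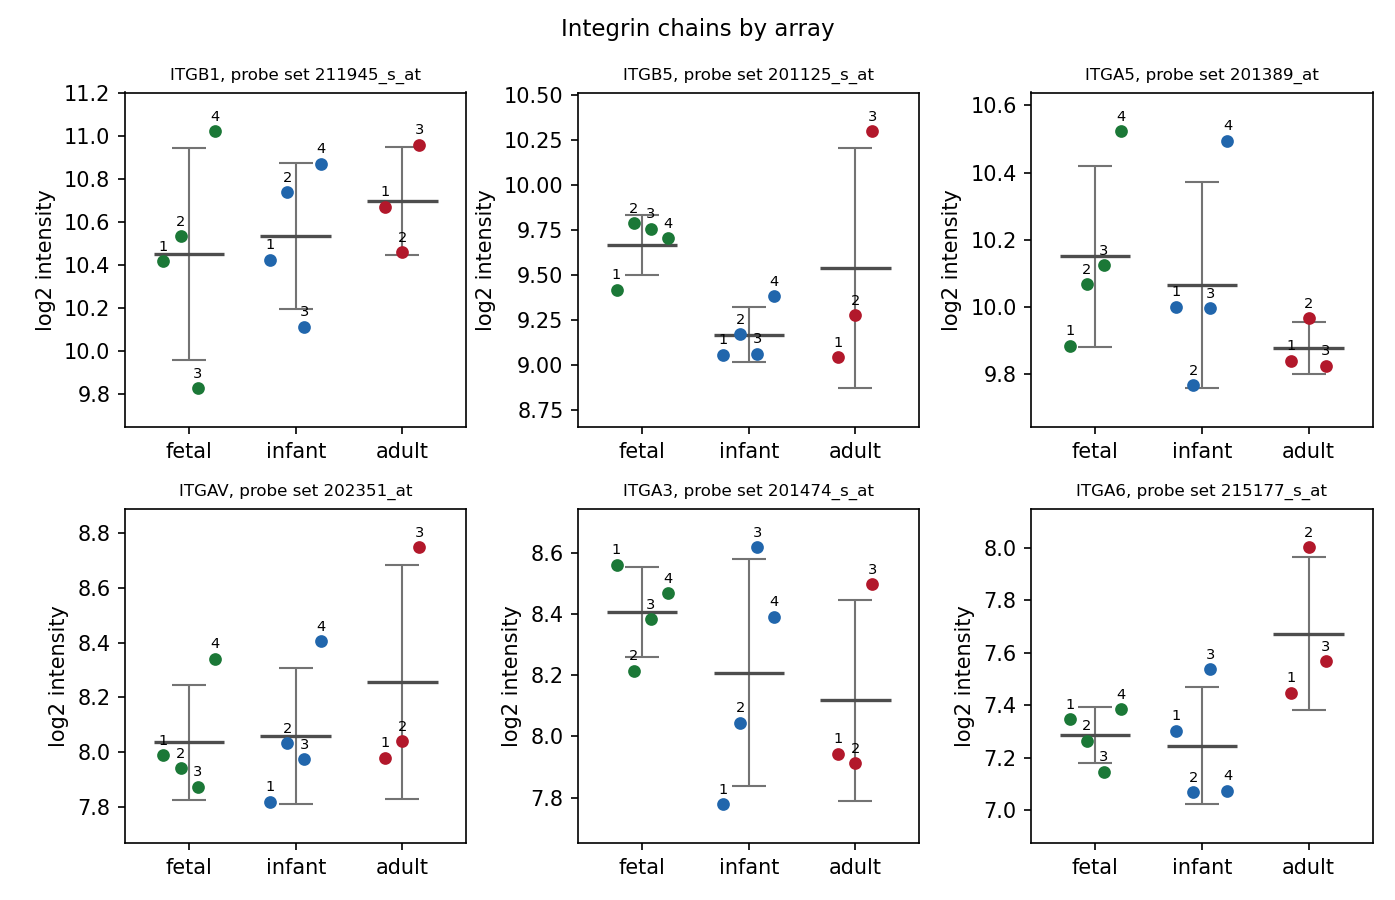
Log2 intensity of 6 integrin probe sets by age group; each point is 1 array with its number, bars are group means and whiskers SD (4 fetal, 4 infant and 3 adult arrays). The ITGB1 groups overlap, with fetal array 3 at 9.82 and fetal array 4 at 11.02, and the ITGB5 fetal points all lie above the infant points.

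Other beta chains were mostly dim. The 7 probe sets of ITGB3, the partner of ITGAV in bone and of ITGA2B in platelets, differed by -0.17 to 0.18 between fetal and adult arrays. Those of ITGB4, the partner of ITGA6 in epithelium, differed by -0.07 to 0.08. ITGB2, the leukocyte chain, stood at 7.59, 7.58 and 7.44 in fetal, infant and adult means. ITGB6 and ITGB8, which with ITGAV release active TGF-beta, were dim in all 4 of their probe sets, with adjusted p of at least 0.727 in every pairwise comparison.

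Among linkers FERMT2, which encodes kindlin-2, stood highest in infant and lowest in fetal means in all 3 of its probe sets. Kindlin-2 binds integrin beta tails together with talin and recruits ILK and paxillin. Probe set 209209_s_at read 8.07, 8.10, 8.10 and 8.55 in fetal arrays 1 to 4, 9.36, 9.28, 8.76 and 8.89 in infant arrays 1 to 4, and 8.67, 8.77 and 8.60 in adult arrays 1 to 3. Every fetal array lay below every infant and every adult array, while infant array 3 read below adult array 2. Such a split is found between fetal and infant arrays, with fetal lower, for 1.21% of all probe sets, and between fetal and adult arrays for 4.41%.

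The FERMT2 mean of this probe set was 8.21 ± 0.23 (SD, n = 4) in fetal arrays. It was 9.07 ± 0.29 (SD, n = 4) in infant arrays, and adult arrays averaged 8.68 ± 0.08 (SD, n = 3). Infant arrays thus stood 1.83-fold above fetal arrays, a fetal-minus-infant log2 difference of -0.87 (SE 0.15, 95% interval -1.18 to -0.56). The unadjusted p, 3.6e-05, was the 3rd smallest of all probe sets in this comparison, and the adjusted p was 0.197. Fetal and adult arrays differed by -0.47 (adjusted p = 0.343) and infant and adult arrays by 0.39 (adjusted p = 0.749). The F test over the 3 groups gave an adjusted p of 0.086, the smallest among the members. It was 0.0261 without fetal array 4, 0.0443 without adult array 3, 0.0364 with array weights and 0.0461 with the replicate block. Of the 20 alternatives run for the F test, these were the only ones in which this probe set passed. Fetal array 4, from a newborn donor, stood above the other fetal arrays. Without it the fetal-to-infant difference was -0.98 and passed (adjusted p = 0.0236), the only 1 of 21 alternatives to do so. With adult arrays 1 and 2 and infant arrays 1 and 2 left out the difference was -0.62 (adjusted p = 0.530).

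FERMT2 probe set 209210_s_at read 10.04, 10.43, 10.08 and 10.80 in fetal arrays 1 to 4, 10.81, 11.05, 10.76 and 10.98 in infant arrays 1 to 4, and 10.78, 10.63 and 10.50 in adult arrays 1 to 3. Fetal array 4 read above all adult arrays and infant array 3, and fetal arrays 1 to 3 were the lowest of all. Its fetal-to-infant difference was -0.57 (SE 0.15, adjusted p = 0.497). The remaining one, 214212_x_at, read 7.14, 7.55, 7.48 and 7.17 in fetal, 7.83, 7.58, 7.53 and 7.67 in infant, and 7.57, 7.55 and 7.56 in adult arrays. Its fetal and infant arrays overlapped through fetal array 2 (difference -0.32, adjusted p = 0.616). The probe sets read the same RNA and are no independent replicates.

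Parvins and LIMS1 (PINCH-1) form a complex with ILK that binds actin. The bright PARVA probe set, 217890_s_at, read 8.67, 8.82, 8.91 and 9.26 in fetal, 9.29, 9.49, 9.26 and 8.99 in infant, and 9.33, 9.03 and 9.12 in adult arrays. Fetal arrays 1 to 3 were its 3 lowest, and fetal array 4 overlapped the infant arrays (fetal-to-infant difference -0.34, adjusted p = 0.666). PARVB was measured by 5 probe sets, of which 216253_s_at had the smallest p. It read 7.41, 7.52, 7.48 and 7.55 in fetal, 7.87, 7.87, 7.55 and 7.74 in infant, and 7.44, 7.53 and 7.55 in adult arrays. Infant arrays 1, 2 and 4 lay above all other arrays. The difference was -0.27 (SE 0.09, adjusted p = 0.616) between fetal and infant and 0.25 (SE 0.10, adjusted p = 0.761) between infant and adult arrays. The other 4 PARVB probe sets differed by -0.06, -0.01, 0.05 and 0.18 between fetal and infant arrays.

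ILK, the pseudokinase at the centre of that complex, stood at 10.75, 10.65 and 10.69 in fetal, infant and adult means, and its interval between fetal and adult arrays ran from -0.22 to 0.34. The brighter LIMS1 probe set, which LIMS3 and LIMS4 share, read 7.71 in fetal array 1, and between 8.32 and 9.00 in all other arrays. Its difference of -0.37 between fetal and adult arrays did not pass (adjusted p = 0.662). The other LIMS1 probe set held one identical value, 8.07, in 5 of the 11 arrays. Identical values in at least a pair of arrays occurred in 37 of the 77 probe sets and in 58.5% of all probe sets.

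TNS1, tensin 1, which binds integrin tails and actin in fibrillar adhesions, had 5 probe sets, and all 5 stood higher in fetal and in infant than in adult means. Probe set 218864_at read 7.43, 7.76, 7.68 and 7.71 in fetal, 7.57, 7.68, 7.33 and 7.69 in infant, and 7.37, 7.14 and 7.37 in adult arrays. Each fetal array lay above each adult array, as for 3.66% of all probe sets, and infant array 3 overlapped the adult arrays. The difference was 0.35 (SE 0.12, adjusted p = 0.366) between fetal and adult and 0.27 (SE 0.12, adjusted p = 0.770) between infant and adult arrays. Of its other probe sets, 218863_s_at, 221747_at, 221246_x_at and 221748_s_at differed by 0.35, 0.33, 0.30 and 0.06 between fetal and adult arrays (adjusted p = 0.642, 0.499, 0.732 and 0.976). In the dim 218863_s_at too, each fetal array lay above each adult array. Its infant-to-adult difference was 0.42 (adjusted p = 0.781), and these groups overlapped.

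VCL, vinculin, which reinforces talin's hold on actin under force, read 11.38, 11.64, 11.38 and 11.85 in fetal arrays 1 to 4, 10.98, 11.11, 11.39 and 11.72 in infant arrays 1 to 4, and 11.01, 10.89 and 11.68 in adult arrays 1 to 3. Its 4 lowest values were those of infant and adult arrays 1 and 2, the arrays set apart on the first component. The fetal-to-adult difference of 0.37 had an interval of -0.07 to 0.81 (adjusted p = 0.648). ZYX, zyxin, which marks adhesions under tension, lay higher in all fetal than in all adult arrays in 1 of its 2 probe sets, by 0.20 (adjusted p = 0.621). TLN1 and both probe sets of TLN2, the talins, differed by 0.25, 0.16 and 0.18 between fetal and adult arrays (adjusted p = 0.616, 0.773 and 0.794).

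Kinases of the adhesion site gave no call. PTK2, focal adhesion kinase, averaged 8.08 in fetal, 8.04 in infant and 8.06 in adult arrays in its brighter probe set, with SDs of 0.15, 0.27 and 0.22, and its fetal-to-adult interval ran from -0.31 to 0.34. PTK2B, its relative, was dim in both probe sets. SRC read between 8.17 and 8.42 in its brightest probe set in 10 arrays, and 9.00 in adult array 3. PXN, the scaffold paxillin, read 9.17, 8.83, 8.82 and 8.49 in fetal, 8.61, 8.82, 8.57 and 8.57 in infant, and 8.59, 8.42 and 8.32 in adult arrays. Its groups overlapped through fetal array 4 (fetal-to-adult difference 0.38, adjusted p = 0.407), and the dim PXN probe set differed by -0.16.

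CAV1, caveolin 1, gave the largest differences from adults among the 77 probe sets. It coats caveolae, small pits of the cell membrane, and links integrins to SRC-family kinases. Probe set 212097_at read 11.46, 11.34, 11.22 and 10.60 in fetal arrays 1 to 4, 11.35, 11.40, 11.43 and 10.16 in infant arrays 1 to 4, and 10.12, 10.06 and 9.70 in adult arrays 1 to 3. All fetal and all infant arrays lay above all adult arrays. Such a split was found for 3.66% of all probe sets between fetal and adult and 1.8% between infant and adult arrays. Infant array 4, at 10.16, was nearly level with adult array 1, and fetal array 4 was the lowest of its group.

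Fetal arrays averaged 11.16 ± 0.38 (SD, n = 4) in this CAV1 probe set. Infant arrays averaged 11.09 ± 0.62 (SD, n = 4), and adult arrays 9.96 ± 0.23 (SD, n = 3). Fetal arrays stood 2.29-fold above adult arrays, a log2 difference of 1.20 (SE 0.28, 95% interval 0.60 to 1.79, adjusted p = 0.130). Infant arrays stood 2.18-fold above them, a difference of 1.13 (SE 0.28, 95% interval 0.53 to 1.72, adjusted p = 0.397). Fetal and infant arrays differed by 0.07 (95% interval -0.48 to 0.62). Both comparisons used the same adult arrays. With the replicate block, the infant-to-adult difference was 1.37 and passed (adjusted p = 0.00137). That block took in the fetal arrays too, and number 4 had no adult array. Fetal and infant array 4, the lowest of their groups, thus had no adult array in their block. Pairing by number and the split of arrays 1 and 2 from array 3 on the first component cannot be told apart in these 2 groups. Without infant array 4 it was 1.43 (adjusted p = 0.0328), and the fetal-to-adult difference, still 1.20, then passed too (adjusted p = 0.0194). Without fetal array 4 the fetal-to-adult difference was 1.38 (adjusted p = 0.0433). Most alternatives did not pass: 18 of 21 for fetal against adult and 19 of 21 for infant against adult arrays. The smallest differences were 1.07 and 1.00, both without adult array 3.

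The other CAV1 probe set, 203065_s_at, was the most variable of the 77, with a range of 2.82. It read 10.08, 9.12, 9.20 and 8.61 in fetal, 9.96, 10.81, 9.23 and 8.65 in infant, and 9.18, 8.67 and 7.98 in adult arrays. Array 4 was again the lowest of the fetal and of the infant group, and both groups overlapped the adults. Its differences from adults were 0.64 for fetal and 1.05 for infant arrays (adjusted p = 0.727 and 0.767). CAV2 and CAVIN1, which build caveolae with CAV1 and were picked after its values were seen, differed by -0.09 to 0.15 between fetal and adult arrays over 5 probe sets (adjusted p of at least 0.793). Leukocyte and macrophage markers averaged 7.37 to 7.58 in adult, 7.27 to 7.46 in fetal and 7.28 to 7.34 in infant arrays. Of their 12 probe sets, 2 were lower (4.12% of all) and 1 higher (4.83% of all) in fetal than adult arrays at an unadjusted limma p under 0.05. In infant arrays 2 were lower (3.79% of all) and 0 higher (2.39% of all). LAPTM5 differed from adults by -0.74 in fetal and -0.84 in infant arrays in 1 probe set (adjusted p = 0.179 and 0.326). Its other probe set differed by 0.09 and 0.15. Smooth muscle markers averaged 8.78 to 9.06 in adult, 8.47 to 8.89 in fetal and 8.65 to 8.83 in infant arrays, and of their 11 probe sets only that of CNN1, lower by a difference of -0.84, passed between fetal and adult arrays (adjusted p = 0.00815). In 1 probe set each, ACTA2 differed by -0.97 and TAGLN by -0.72 (adjusted p = 0.304 and 0.149), and DES by 0.17 (adjusted p = 0.797). MYH11 and the other probe sets of this list are counted but not given here. Of the 11, 3 were lower (4.12% of all) and 0 higher (4.83% of all) in fetal than adult arrays at an unadjusted limma p under 0.05. Their median difference was -0.13. In infant arrays 1 was lower (3.79% of all) and 0 higher (2.39% of all). Between infant and adult arrays CNN1 differed by -0.61 (adjusted p = 0.146). The part of these markers in the comparisons with adults was not tested.

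**Figure D3:**
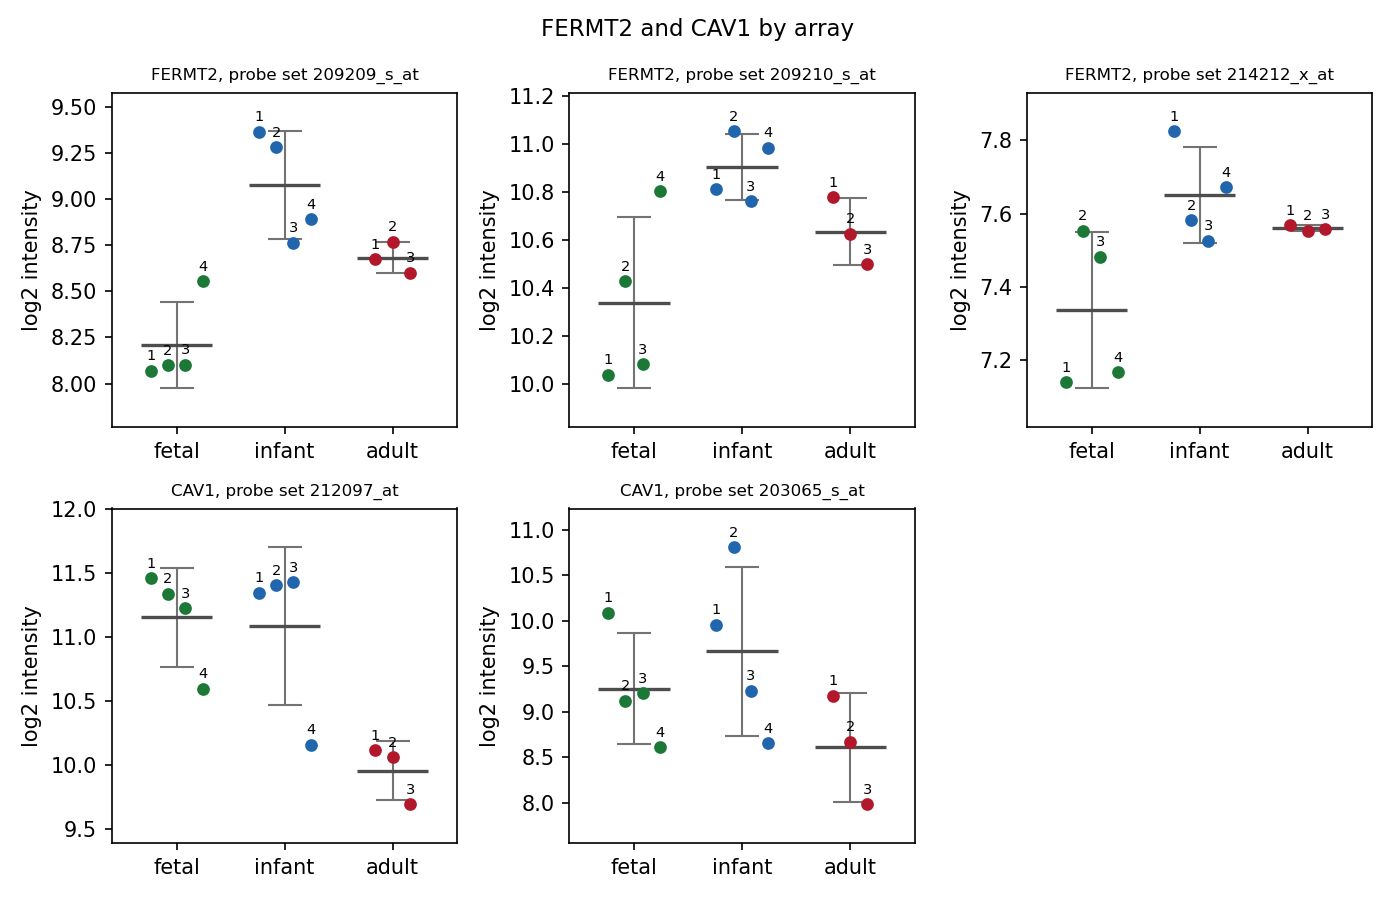
Log2 intensity of the 3 FERMT2 and the 2 CAV1 probe sets by age group; each point is 1 array with its number, bars are group means and whiskers SD (4 fetal, 4 infant and 3 adult arrays). In 209209_s_at the fetal points end at 8.55, below all others, and in 212097_at the adult points end at 10.12, below all others.

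**Figure D4:**
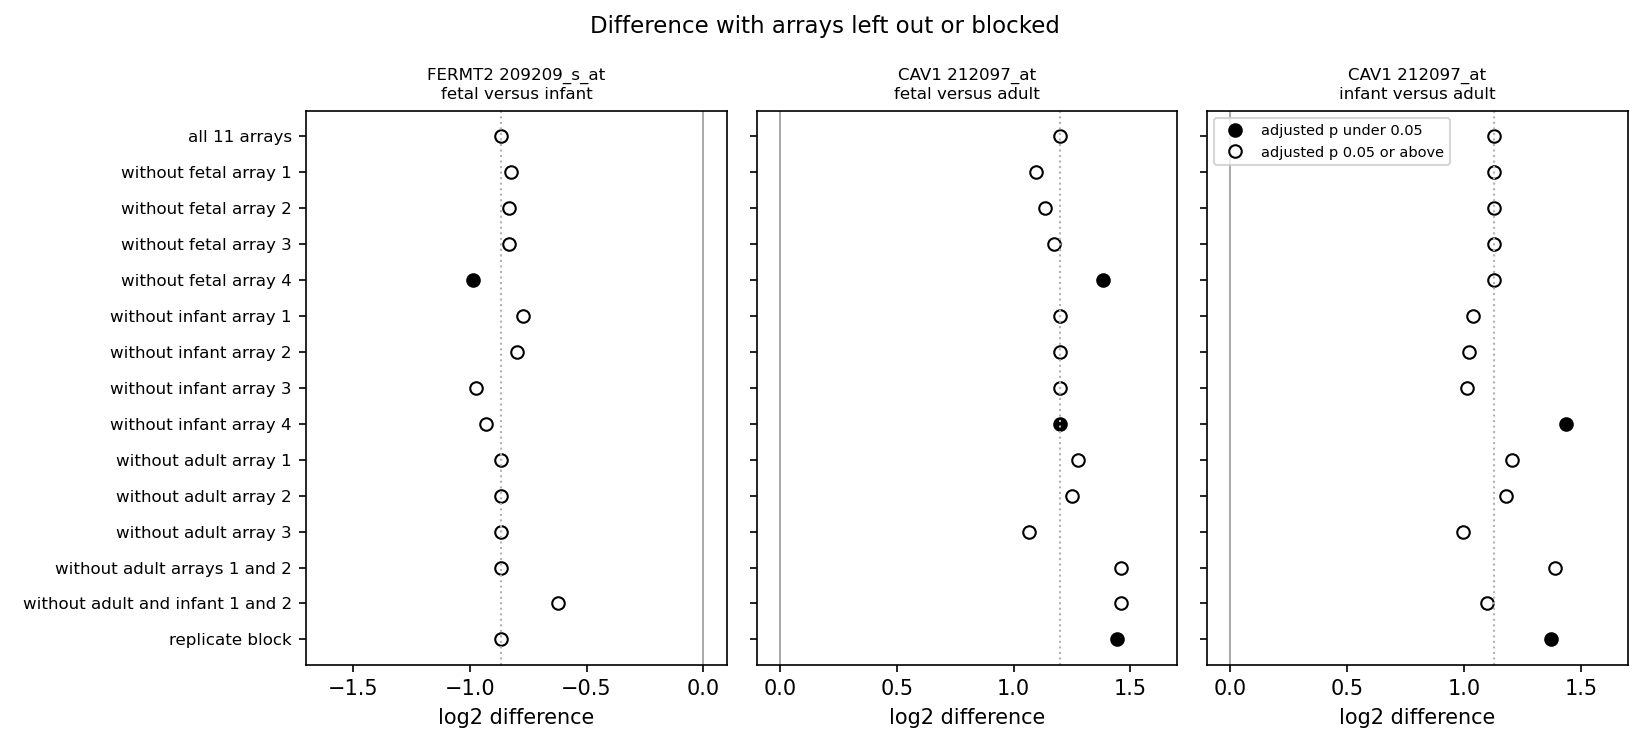
Log2 differences of FERMT2 209209_s_at and CAV1 212097_at with all 11 arrays, with arrays left out, and with the replicate number as a block; filled points have a limma adjusted p under 0.05. The FERMT2 difference stays between -0.62 and -0.98 and the CAV1 differences between 1.00 and 1.46, and few settings pass.

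Within the fetal titles, newborn and gestation day 120 arrays, 2 of each, gave no call among the members by limma. So few arrays do not exclude a difference. Among the 77, 1 had an unadjusted p under 0.05, where 1.81% of all probe sets did and 0% were called. It was TLN1, which read 7.78 and 7.86 at gestation day 120 and 8.14 and 8.20 in newborn arrays, a difference of 0.35 (adjusted p = 1). The member differences lay between -0.70 (95% interval -1.92 to 0.52), for CAV1 203065_s_at, and 0.45 (-0.13 to 1.03), for the brighter LIMS1 probe set.

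Genes around the members were taken from 3 further lists. Integrin chains outside the members had 0 of 12 probe sets at an unadjusted p under 0.05 in the pairwise limma comparisons or the F test. Of other adhesion-site adaptors 10 of 83 had an F test p under 0.05 (12%, against 8.01% of all), and none was called. The kinases YES1 and CSK differed between fetal and adult arrays by 0.98 and 0.64 in 2 probe sets of YES1 and 0.40 for CSK (adjusted p = 0.161, 0.144 and 0.289). PDLIM7, an actin-binding adaptor, differed by -0.61 between infant and adult arrays in 1 probe set (adjusted p = 0.375). Matrix ligands of integrins had 12 of 67 with such a p (17.9%), and the F test called none (smallest adjusted p = 0.0858). Between fetal and adult arrays 1 of the 67 was called, where 0.131% of all probe sets were.

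It was COL6A1, a collagen VI chain, which rose by 1.09 in fetal over adult arrays in 1 of its probe sets (adjusted p = 0.0381); none of its others passed. THBS2, a thrombospondin, differed by -1.13 between fetal and adult and -1.41 between infant and adult arrays (adjusted p = 0.179 and 0.211). LAMA2, the alpha chain of muscle-type laminin, differed by -0.97 and -0.53 in 2 probe sets between fetal and adult arrays, and LAMB1, a laminin beta chain, by 0.57 and 0.55. THBS2, LAMA2 and LAMB1 did not pass in any comparison of ages.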

How the data were processed

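The deposited table held 1 column of intensity per array on a linear scale, processed by the authors with RMA (background correction, normalisation between arrays and probe summary), per the submitters' processing notes, with no version given. Here log2 was taken of each deposited intensity. The lowest was 75.3, and no pair of arrays held identical columns. Array annotation gave 1 symbol to 19065 of 22215 probe sets, several to 1043 and none to 2107. All 11 arrays entered a linear model with 1 mean for each title group (lmFit and eBayes of limma 3.58.1, R 4.3.3), with two-sided tests and Benjamini-Hochberg adjustment over all probe sets. A second model split the fetal titles into newborn and gestation day 120. Intervals cover 95% and are unadjusted, and the number of arrays limits the precision. The fit was also run on simulated arrays with independent normal noise. Such arrays lack the structure seen here on the first component, so that run does not vouch for the p-values given.

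Members and lists were chosen with earlier results of these data known. Described in full were probe sets with an adjusted p under 0.05 or a pairwise unadjusted p under 0.01. As fewer than 8 qualified, the 8 with the smallest F test p were taken, with the other probe sets of their genes. ITGA3, ITGA5, ITGAV, ITGB1, VCL, PARVA, PXN, LIMS1, SRC and TLN1 were given by array or range besides, for their roles or after their values were seen. From each further list up to 3 genes of smallest p per comparison were named. Another list is not reported here.

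Infant and adult deviations from the group means correlated at 0.14, 0.13 and 0.20 between arrays of the same number. Each was over 0.1, and the numbers in the titles were taken as possible pairs of these groups. However, infant and adult arrays 1 and 2 also stand apart on the first component. Fetal numbers were not taken as pairs. The main fit held no term for pairs, so its p-values are unpaired. Pairs entered only in the replicate block, which took in the fetal arrays too. No fit paired infant and adult arrays alone. Alternatives were left-out arrays, other normalisation, moderation, weights, filters and groupings. Gene coordinates and sequences were not used here.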

Additional observations from a re-analysis of the deposited data

Results flagged for a closer look

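Of 42 groups of 4 arrays in the 21 probe sets of the genes described in full, 3 held an array far from its group by Dixon's ratio of gap to range at its usual critical value. Chance flags about 1 group in 20. FERMT2 209209_s_at read 8.55 in fetal array 4, against 8.07 to 8.10 in the other fetal arrays. CAV1 212097_at read 10.16 in infant array 4, against 11.35 to 11.43 in the other infant arrays. TNS1 218863_s_at read 7.28 in fetal array 4, against 7.34 in each of the others.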

How the results depend on the processing

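For the 8 probe sets with the smallest F test p, no pairwise difference with an unadjusted limma p under 0.05 reversed under any alternative run. These differences were chosen by their p in the same arrays, most of which each alternative reused. Stable signs were thus likely beforehand and are no separate support. The signs of the other differences given here were not followed. For fetal against adult arrays the count of 6 at an unadjusted limma p under 0.05 became 12 without adult arrays 1 and 2 and infant arrays 1 and 2, 11 with the replicate block and 3 with 1 probe set per gene. Leaving out 1 array gave 4 to 12, the highest without adult array 3. For infant against adult arrays the count of 8 became 4 with probe sets above the median only, 4 with array weights, 5 with the 2 groups alone and 2 with 1 probe set per gene. It was 2 to 9 with 1 array left out, the lowest without infant array 1. For fetal against infant arrays the count of 9 became 3 with 1 probe set per gene, and 5 to 10 with 1 array left out, the lowest without fetal array 2. The F test count of 8 became 5 above the median and 3 with 1 probe set per gene, and 5 to 12 with 1 array left out. For newborn against gestation day 120 the count of 1 became 3 without adult arrays 1 and 2, 4 without infant arrays 1 and 2 as well, 0 above the median, 6 with array weights and 4 with the fetal arrays alone. It was 1 to 4 with 1 array left out.

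At an adjusted p under 0.05 the main count was 0 throughout. The replicate block gave 1 for fetal against adult arrays (CAV1, 1.44, adjusted p = 0.000468), 1 for infant against adult arrays and 2 for the F test (CAV1 and FERMT2). Fetal numbers did not pass the check for pairs, and number 4 had no adult array. Array weights gave 1 for the F test (FERMT2), and leaving out adult arrays 1 and 2 gave 1 for infant against adult arrays (ITGB5). Leaving out 1 array gave 0 to 1 for each comparison of ages and the F test. The cause was not tested. Over all probe sets the fetal against adult count of 29 ran from 4 to 221. With 3 or 4 arrays a group, and human probes on monkey RNA, small differences and those of dim probe sets are not resolved.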
